A study of Mus musculus with 20 samples.

Results

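The 32 genes described here are Atf4, the main transcription factor of the amino acid response, and genes linked to it. The 32 include 15 cytosolic aminoacyl-tRNA synthetase genes, and whether Atf4 controls each of them was not tested. The genes were listed by gene symbol for their known roles, with earlier results of these data known. All 32 are among the 27998 genes of the single-cell tables. By role they are 5 regulators (Atf4, Ddit3, Cebpb, Nupr1 and Trib3), 2 stress effectors (Chac1 and Sesn2), 4 enzymes of asparagine and serine synthesis (Asns, Phgdh, Psat1 and Psph), 2 mitochondrial folate enzymes (Shmt2 and Mthfd2), 4 amino acid transporter subunits (Slc7a11, Slc7a5, Slc3a2 and Slc7a3) and the 15 synthetases (Aars, Cars, Eprs, Gars, Iars, Lars, Mars, Nars, Sars, Tars, Wars, Yars, Vars, Hars and Rars).

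When amino acids run short or unfolded protein builds up, kinases phosphorylate the translation initiation factor eIF2, which slows protein synthesis in general but lets the Atf4 mRNA be translated. Atf4 protein then binds DNA as a dimer, often with a C/EBP protein, at a composite site called the C/EBP-ATF response element, and raises genes for amino acid synthesis, amino acid uptake and tRNA charging. Because the response is switched mainly by translation, the Atf4 mRNA level is not a measure of Atf4 protein. Pluripotent stem cells divide fast, make much serine and one-carbon units, and express many of these genes at high levels.

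The study pooled differently treated mouse embryonic stem cells into single-cell libraries, after each well had been marked by transfection with barcodelets, which are short synthetic RNAs that serve as a tag of the treatment. All groups come from 1 male 129P2/OlaHsd line that was taken out of stem cell medium, held in serum-free medium and then in differentiation medium with 2% serum before treatment. In the germ layer experiment, 32 populations carried every combination of 5 pathways for 24 h: retinoic acid (RA) against the retinoic acid receptor antagonist CD 2665, the Wnt activator GSK3 inhibitor XV against the Wnt inhibitor IWR1, Activin A against the Tgfb receptor inhibitor A8301, Bmp4 against the Bmp inhibitor Dorsomorphin, and Fgf2 against the MEK inhibitor UO126. In the mesendoderm experiment, 384 wells carried 128 combinations of 7 pathways (the 5 above, Notch and Shh) for 24 h after a 24 h mesendoderm start, in which the cells received Fgf2, Dorsomorphin, the RA antagonist CD 2665, Activin A and the GSK3 inhibitor XV. In the mixed experiment, 144 wells began either undirected or from the mesendoderm start and then carried the 32 combinations of 5 pathways, or no combinatorial treatment (8 control wells for each start). The agents behind the plus and minus levels are named in the tables of the germ layer experiment only, so for the other experiments the levels are called Wnt plus, Wnt minus and so on. In 6 bulk libraries, cells were untransfected, or were collected 24 h or 72 h after barcodelet transfection as the labels name them.

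The composite element is shown here because it is the DNA feature that could link these genes. It was searched as the letters TGATGNAAN on both strands of the RefSeq promoters (GRCm38.p6, 250 bases before to 50 bases after each start site). Of the 32 genes, 23 had a promoter in that table and 10 of these (43.5%) held at least 1 match, against 4.5% of the 27025 genes in the table and 3.95% of its 32851 promoters. The genes were listed for their known part in this response, so their share is not independent of that choice. Of the 12 matches, 10 are listed as 29-base windows, read 5′ to 3′ on the strand that carries the match, with the matched letters in capitals.
Asns: cccagccacaTGATGAAACttcccgcacg
Chac1: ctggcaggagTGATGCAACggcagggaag
Nupr1: aagccctgtcTGATGCAATctggcccttt
Trib3: cccgcccggcTGATGTAAAcctgagctaa
Slc7a11, first match: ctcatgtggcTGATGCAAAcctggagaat
Slc7a11, next match: ggctgcatgaTGATGCAAAttctccaggt
Gars: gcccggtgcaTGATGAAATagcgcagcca
Iars: cgtctggaggTGATGCAATactgacagtg
Tars: gctaaccagcTGATGCAACgggactcctg
Yars: cgagctcagcTGATGCAACccgacgggac

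Among the windows listed, Chac1, Tars and Yars shared the 9 letters TGATGCAAC, and Iars and Nupr1 shared TGATGCAAT. The Asns word was TGATGAAAC, on the strand of the gene. By role, 5 of 8 synthetases with a promoter held a match, as did 2 of 5 regulators, 1 of 4 synthesis enzymes and 0 of 2 mitochondrial folate enzymes. The promoters of Atf4, Ddit3, Cebpb, Sesn2, Phgdh, Psat1, Psph, Shmt2, Mthfd2, Slc3a2, Eprs, Sars and Mars held none within this window. A match is a description of letters and not evidence of binding. The 250 bases before the start site of Asns and Nupr1 are given in full because these genes share the element and moved in opposite directions at Wnt plus in the mixed experiment. Capitals mark the element, which reads as its reverse complement in Nupr1. The Asns stretch is chr6:7693210-7693459 on the minus strand and the Nupr1 stretch is chr7:126625471-126625720 on the minus strand.
Asns: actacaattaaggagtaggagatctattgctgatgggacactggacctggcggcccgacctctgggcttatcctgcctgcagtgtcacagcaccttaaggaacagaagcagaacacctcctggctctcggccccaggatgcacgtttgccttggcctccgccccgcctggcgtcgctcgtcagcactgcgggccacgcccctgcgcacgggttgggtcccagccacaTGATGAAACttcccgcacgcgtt
Nupr1: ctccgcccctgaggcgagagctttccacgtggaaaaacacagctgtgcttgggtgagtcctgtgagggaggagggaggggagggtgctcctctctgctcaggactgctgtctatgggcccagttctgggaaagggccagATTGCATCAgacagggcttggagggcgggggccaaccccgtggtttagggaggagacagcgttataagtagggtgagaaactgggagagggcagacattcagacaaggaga

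UMI counts (molecules) of the cells assigned to each population or well were summed, and populations with at least 5 cells were analysed. This left 32 germ layer populations of 70 to 230 cells (991630 to 3816595 UMIs), 300 mesendoderm wells of 5 to 29 cells (27701 to 332644 UMIs) and 142 mixed wells of 5 to 97 cells (101140 to 2119355 UMIs). The mixed wells divide into a set that received additional external barcodelets and a set that did not, and results are given for each set where they differ. Mitochondrial genes took 3.03% to 3.89%, 3.60% to 6.25% and 4.24% to 7.82% of UMIs in the 3 experiments. All 7 pluripotency markers were detected in each, and of the 3 blood markers Hbb-bt was at 0 in each and Ptprc at 0 in the germ layer and mesendoderm experiments. The libraries shared 64 to 151 cell barcodes between experiments, which were kept. In summed populations, a lower level can mean fewer cells of a type or less RNA per cell, and these cannot be told apart. Levels are in CPM, the UMI counts of a population scaled to a common total after TMM normalization. They count mRNA 3′ ends by molecule, so they are not divided by gene length, and whether all genes are captured equally was not tested. A pathway effect is the log2 level at plus less that at minus, averaged over the other pathways, with its standard error, from edgeR's quasi-likelihood test. Adjusted p-values are over all genes of a comparison and a gene is called at adjusted p under 0.05. Nothing in the labels says that wells are separate cultures beyond being separate wells, so the errors measure the spread between these populations.

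Some synthetases and synthesis enzymes were among the most abundant members, and several stress-linked genes were among the least. Other synthetases were lower, down to Hars at 52.0 ± 5.99 CPM in the germ layer experiment, at place 24 of 32. The highest mean levels in the germ layer experiment were Aars at 235 ± 19.3 CPM (SD, n = 32), Eprs at 229 ± 25.7 CPM, Psat1 at 211 ± 26.5 CPM, Phgdh at 209 ± 25.6 CPM, Nars at 203 ± 18.7 CPM and Atf4 at 183 ± 22.3 CPM. Neighbours in this order from Aars to Nars differed by less than their SDs. The order was not the same in the untransfected bulk libraries, where Aars read 66.0 and 66.8 CPM and Sars 446 and 556 CPM. Sars was at 129 ± 10.8 CPM in the germ layer experiment. At the other end were Trib3 at 13.3 ± 4.16 CPM, Chac1 at 12.6 ± 4.21 CPM, Nupr1 at 7.14 ± 3.39 CPM and Slc7a11, the cystine importer of glutathione synthesis, at 2.37 ± 1.01 CPM. Slc7a11 was last of 32 in all 3 experiments and failed the filter on low counts in each, so it enters no count below. In the mixed experiment Atf4 was the most abundant member, at 244 ± 57.3 CPM (SD, n = 142), ahead of Psat1 at 210.1 ± 36.1 CPM and Aars at 182 ± 22.0 CPM. For the pathway effects the filter kept 31 of 32 members in the germ layer and mixed experiments and 15 in the shallower mesendoderm experiment.

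**Figure D1:**
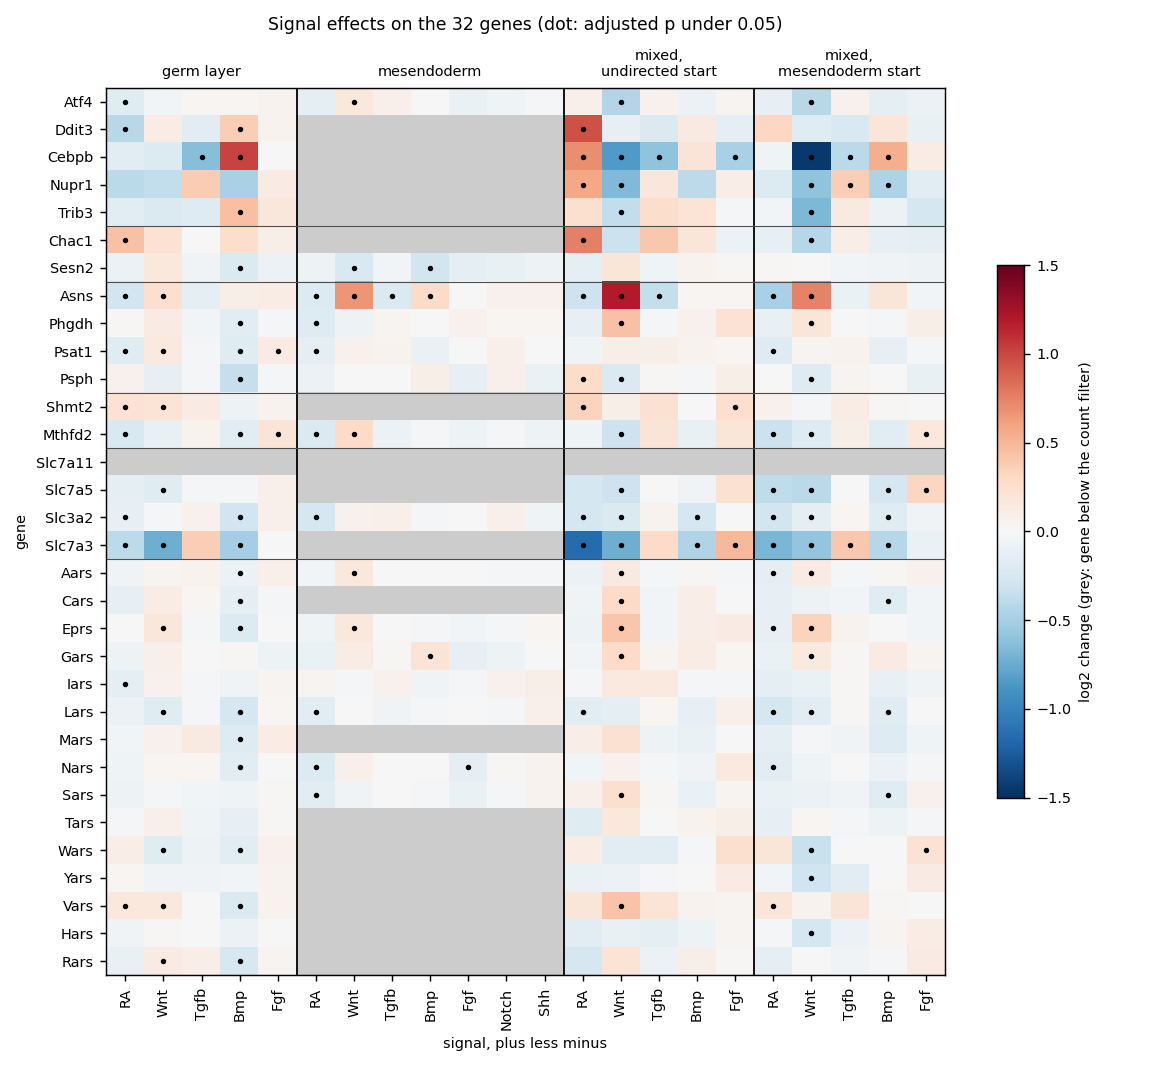
Effects of each pathway (columns, plus less minus level, by experiment and start) on each member (rows, by role), as log2 change by colour, with a dot for called effects and grey for members that did not pass the filter. The Asns row is positive in every Wnt column, while Atf4 is negative in the Wnt columns of the mixed experiment.

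Asns, the enzyme that makes asparagine from aspartate and glutamine, rose at Wnt plus in all 3 experiments and from both starts. Atf4 and other regulators fell at Wnt plus in the mixed experiment, so that the enzyme and the transcription factor known to control it moved in opposite directions there. In the germ layer experiment its lowest, median and highest level was 131, 157 and 206 CPM in the 16 populations at Wnt minus, and 132, 186 and 282 CPM in the 16 at Wnt plus. In the mesendoderm experiment these levels were 14.5, 102 and 269 CPM in 152 wells at Wnt minus and 23.4, 165 and 506 CPM in 148 wells at Wnt plus. The median was higher at Wnt plus in both experiments, and the ranges of the levels overlapped.

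In the mixed experiment the undirected wells had Asns at 48.4, 70.8 and 149 CPM (lowest, median and highest of 32 wells) at Wnt minus. At Wnt plus the levels of 30 wells were 80, 149.7 and 347 CPM. Wells of the mesendoderm start had 57.6, 96.9 and 167 CPM at Wnt minus and 102, 159 and 307 CPM at Wnt plus, with 32 wells each. The ranges overlapped within each start, but within each start the median at Wnt plus was above nearly every well at Wnt minus. The log2 changes were 0.25 ± 0.06, adjusted p = 0.00327 in the germ layer experiment, 0.66 ± 0.07, adjusted p = 1.99e-17 in the mesendoderm experiment, 1.19 ± 0.09, adjusted p = 2.56e-25 from the undirected start and 0.75 ± 0.07, adjusted p = 4.18e-18 from the mesendoderm start. The change from the mesendoderm start less that from the undirected start was -0.44 ± 0.11, adjusted p = 0.00533. This difference was -0.50, adjusted p = 0.0595 in the wells without external barcodelets and -0.40, adjusted p = 0.23 in those with them, so neither set called it alone. The 4 effects themselves were called under every alternative that was run.

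**Figure D2:**
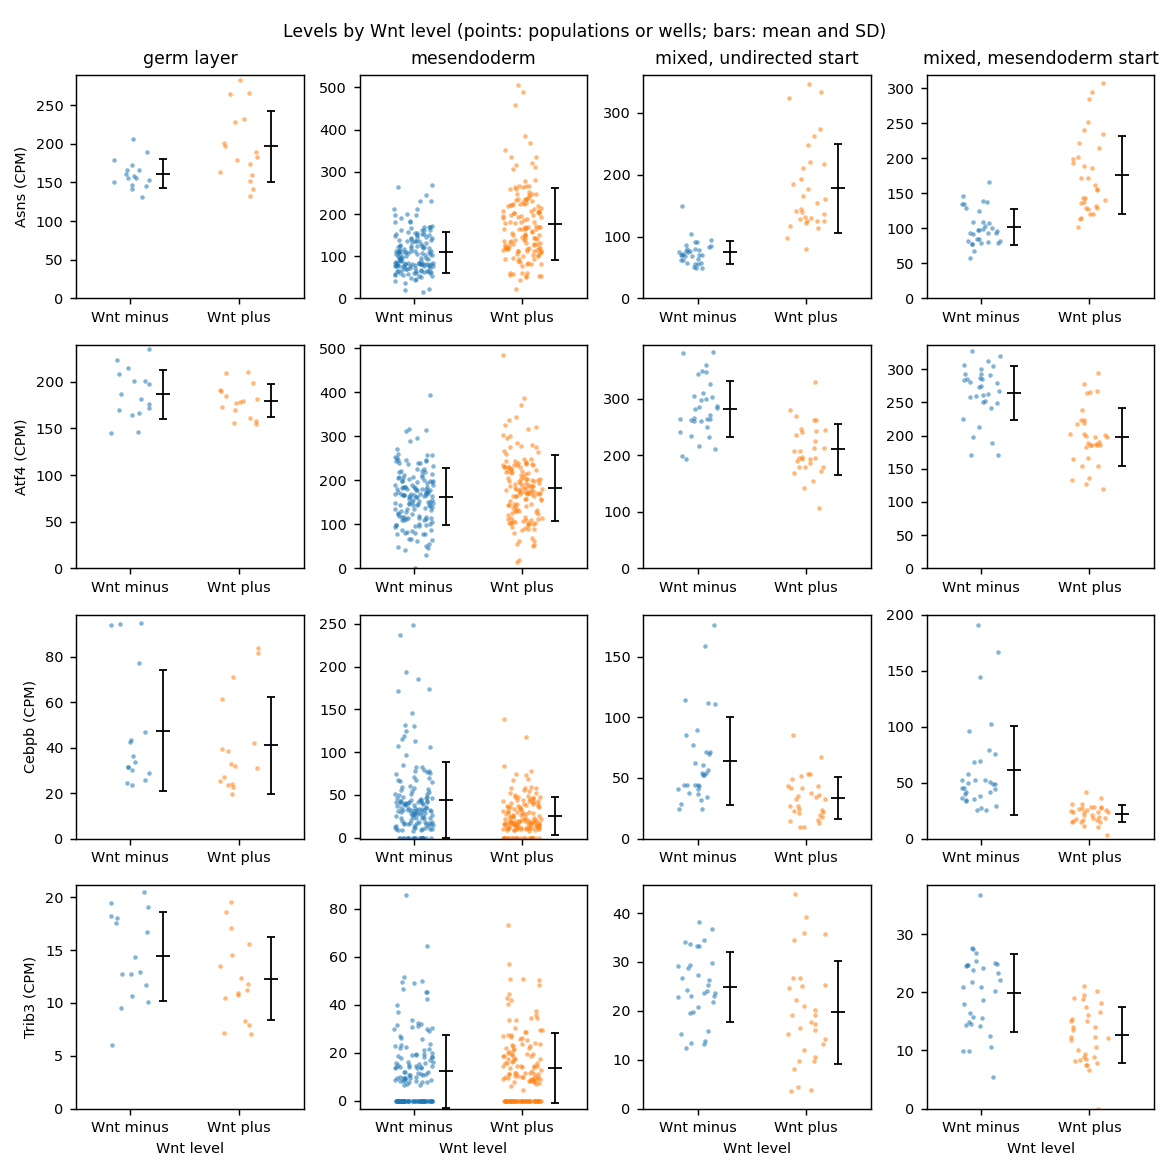
Levels in CPM (y axes) of Asns, Atf4, Cebpb and Trib3 at Wnt minus and Wnt plus in the germ layer experiment, the mesendoderm experiment and both starts of the mixed experiment, with a point for each population or well and bars at the mean with 1 SD. Asns points lie higher at Wnt plus in each experiment, and ranges overlap throughout. Cebpb and Trib3 did not pass the filter for the pathway effects in the mesendoderm experiment, where many wells are at 0.

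Of the 5 regulators, 4 fell at Wnt plus from both starts of the mixed experiment. Atf4 levels from the undirected start were 193, 277 and 382 CPM at Wnt minus and 107, 202 and 329.9 CPM at Wnt plus (lowest, median and highest). The corresponding levels from the mesendoderm start were 171, 273 and 326 CPM and 119, 194 and 295 CPM. The groups overlapped, with the medians at Wnt plus lower in both starts. Atf4 changed by -0.43 ± 0.07, adjusted p = 3.35e-08 from the undirected start and by -0.42 ± 0.06, adjusted p = 6.64e-10 from the mesendoderm start. These calls held in the wells with and without external barcodelets. The Atf4 change was -0.04 ± 0.05, adjusted p = 0.589 in the germ layer experiment. Its mesendoderm value was 0.16 ± 0.06, adjusted p = 0.0303, and this call was lost with relative log expression size factors (0.15, adjusted p = 0.0507), with no filter on low counts and with a minimum of 10 cells.

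Cebpb, a partner of Atf4 on the composite element, had levels of 25.5, 48.9 and 191 CPM at Wnt minus and 3.5, 23.6 and 42.0 CPM at Wnt plus from the mesendoderm start. The highest well at Wnt plus lay below the median of those at Wnt minus, although the ranges overlapped. The changes were -1.45 ± 0.13, adjusted p = 8.68e-19 from that start and -0.86 ± 0.17, adjusted p = 9.37e-06 from the undirected start. Nupr1, a stress-induced nuclear protein, changed by -0.66 ± 0.14 from the undirected and -0.60 ± 0.12 from the mesendoderm start (adjusted p = 8.84e-05 and 9.83e-06). Trib3, a pseudokinase that is induced by Atf4 and feeds back on it, changed by -0.37 ± 0.14 and -0.67 ± 0.12 (adjusted p = 0.0311 and 7.83e-07). Trib3 from the undirected start was called in neither set of wells alone, and the wells with external barcodelets alone did not call Trib3 from the mesendoderm start or Nupr1 from the undirected start. Chac1, which degrades glutathione, fell from the mesendoderm start only by the test within that start (-0.42 ± 0.15, adjusted p = 0.0174). Its value from the undirected start was -0.32 ± 0.22, adjusted p = 0.259, and the difference between starts was not called (-0.11 ± 0.27, adjusted p = 0.882). Ddit3, the stress transcription factor CHOP, was not called at Wnt plus in any experiment where it passed the filter.

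Of the transporter subunits that passed the filter, all 3 fell at Wnt plus in the mixed experiment. Slc7a3, a carrier of arginine and lysine, had germ layer levels of 10.4, 19 and 54.9 CPM at Wnt minus and 6.73, 13.3 and 17.9 CPM at Wnt plus. The highest Wnt minus populations stood well above every Wnt plus population, while the low ends overlapped. The change was -0.74 ± 0.14, adjusted p = 0.000108 there, -0.73 ± 0.16 from the undirected start and -0.59 ± 0.13 from the mesendoderm start of the mixed experiment (adjusted p = 9.82e-05 and 0.00011). Slc7a5, the large neutral amino acid carrier, fell in the same 3 comparisons (-0.18 ± 0.06, -0.31 ± 0.12 and -0.40 ± 0.09). Its partner subunit Slc3a2 fell in both starts of the mixed experiment (-0.21 ± 0.07 and -0.14 ± 0.06).

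Synthetases and serine enzymes were split. Eprs, the synthetase for glutamate and proline, rose by 0.18 ± 0.03 in the germ layer experiment, 0.16 ± 0.04 in the mesendoderm experiment, 0.41 ± 0.05 from the undirected start and 0.33 ± 0.04 from the mesendoderm start. Aars, for alanine, rose in the mesendoderm experiment (0.16 ± 0.04) and from both starts of the mixed experiment (0.14 ± 0.04 and 0.12 ± 0.04). In the germ layer experiment Vars and Rars rose (0.16 ± 0.05 and 0.12 ± 0.04), and Lars and Wars fell (-0.18 ± 0.04 and -0.18 ± 0.07). From the undirected start Vars, Cars, Gars and Sars rose too, by 0.42 ± 0.09, 0.28 ± 0.07, 0.28 ± 0.06 and 0.24 ± 0.07. From the mesendoderm start Gars rose (0.14 ± 0.05), and Wars, Yars, Hars and Lars fell (-0.33 ± 0.08, -0.29 ± 0.07, -0.26 ± 0.09 and -0.17 ± 0.06). The test of the difference between starts called Vars, Cars and Sars (-0.37 ± 0.11, -0.35 ± 0.09 and -0.33 ± 0.09, adjusted p = 0.0181, 0.00525 and 0.0159). All 3 differences were lost with no filter on low counts and in the wells without external barcodelets, which did not call the undirected rises of these genes either. Phgdh, the first enzyme of serine synthesis, rose from both starts (0.44 ± 0.08 and 0.18 ± 0.07), and Psph, the last, fell (-0.22 ± 0.09 and -0.19 ± 0.07). Mthfd2, which follows Shmt2 in the mitochondrial folate pathway, fell from both starts (-0.31 ± 0.07 and -0.19 ± 0.06) and rose in the mesendoderm experiment (0.29 ± 0.07, adjusted p = 0.000126). Psat1 and Shmt2 rose in the germ layer experiment (0.14 ± 0.04 and 0.21 ± 0.06).

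Counted over the members, the germ layer experiment had 6 of 31 higher and 4 lower at Wnt plus, where 12.1% and 11.9% of all genes tested were called. The mesendoderm experiment had 5 of 15 higher and 1 lower, against 19.9% and 19.6%. From the undirected start 8 of 31 were higher and 9 lower, against 16.7% and 19.4%. From the mesendoderm start 5 were higher and 14 lower, against 19.9% and 21.2%. The difference between starts was called for 0 members in the positive and 4 in the negative direction, against 4.14% and 3.63% of all genes. The median of this difference was -0.13 over the members that passed the filter and 0.01 over all genes tested. The members holding the composite element were not alike, with 3 of 9 higher and 2 lower from the undirected start, against 3 and 5 of the 13 with a promoter but no match. The calls numbered 11 from the undirected start in wells without external barcodelets and 8 from the mesendoderm start in wells with them.

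Genes of the pathway outside the 32 were followed in 5 lists. Of 12 endoplasmic reticulum stress genes, 8 fell and 0 rose at Wnt plus in the germ layer experiment, with a median of -0.15, led by Hspa5, the chaperone BiP (-0.28 ± 0.05, adjusted p = 3.54e-05). In the mixed experiment 5 and 4 of 12 fell from the undirected and the mesendoderm start and none rose, among them Xbp1, a transcription factor of the unfolded protein response (-0.78 ± 0.11 and -0.57 ± 0.08). Of 23 other Atf4 response genes that were tested, 2 rose and 8 fell from the undirected start, and 3 rose and 8 fell from the mesendoderm start. Slc38a2, a neutral amino acid transporter, fell from both (-0.67 ± 0.07 and -0.37 ± 0.06). Pycr1, an enzyme of proline synthesis, rose from the mesendoderm start (1.34 ± 0.13, adjusted p = 3.25e-18), and Bcat1, which handles branched-chain amino acids, rose from the undirected start (0.91 ± 0.09, adjusted p = 1.55e-17). Of 8 other cytosolic synthetase and scaffold genes, 4 rose and 1 fell from the undirected start, with Qars, for glutamine, at 0.66 ± 0.09, adjusted p = 3.53e-10, and 3 rose and 1 fell from the mesendoderm start. Of the eIF2 kinase, eIF2B and phosphatase genes, 3 of 12 rose and none fell from the undirected start, led by Eif2b4 (0.58 ± 0.10, adjusted p = 6.49e-07). From the mesendoderm start 4 of 12 rose, Eif2b4 again first (0.66 ± 0.07), and 3 fell, among them the eIF2 kinase gene Eif2ak2 (-0.98 ± 0.13, adjusted p = 1.04e-10) and Impact (-0.23 ± 0.06, adjusted p = 0.00181). Of 13 mitochondrial synthetases 1 rose from the undirected start (Ears2, 0.52 ± 0.14) and 1 fell from the mesendoderm start (Mars2, -0.38 ± 0.14). Of all genes tested, 12.1% rose and 11.9% fell at Wnt plus in the germ layer experiment. The shares were 16.7% and 19.4% from the undirected start and 19.9% and 21.2% from the mesendoderm start. The mitochondrial synthetase counts are under these shares.

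Cell type markers moved with Wnt as well. In the undirected wells the summed level of the 7 primitive streak markers, all detected in the experiment, was 3.68 to 121 (median 25.1) CPM at Wnt minus and 15.3 to 671 (median 98.6) CPM at Wnt plus. The 4 neural ectoderm markers were at 0 to 286 (median 61.2) CPM and 0 to 21.4 (median 6.17) CPM. In the wells of the mesendoderm start the streak markers were at 15.7 to 384 (median 55.3) CPM and 35.0 to 669 (median 243) CPM. Germ layer populations had them at 24.2 to 301 (median 66.0) CPM and 44.9 to 1033 (median 109.5) CPM. Their part in the Wnt results was not tested.

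Asns fell at RA plus in every experiment, and Ddit3, Cebpb, Nupr1 and Chac1 rose at RA plus from the undirected start of the mixed experiment. Retinoic acid is a morphogen that drives stem cells out of pluripotency. Asns levels in the germ layer experiment were 131, 193 and 282 CPM in the 16 populations with CD 2665 and 132, 159 and 183 CPM in the 16 with RA (lowest, median and highest). The highest RA population lay below the median of those with CD 2665, and the groups overlapped at the low end. Among populations with IWR1 the median was 157 CPM both with RA and with CD 2665. With GSK3 inhibitor XV the medians were 161 CPM with RA and 229.9 CPM with CD 2665. Asns changed by -0.29 ± 0.06, adjusted p = 0.000916 in the germ layer experiment, -0.20 ± 0.07, adjusted p = 0.0204 in the mesendoderm experiment, -0.32 ± 0.09, adjusted p = 0.0033 from the undirected start and -0.48 ± 0.07, adjusted p = 8.18e-09 from the mesendoderm start. The mesendoderm value was -0.12, adjusted p = 0.608 with a minimum of 10 cells, and the undirected value was -0.23, adjusted p = 0.185 in wells without external barcodelets.

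Ddit3 levels from the undirected start were 0, 10.5 and 48.4 CPM at RA minus and 5.95, 26.1 and 44.6 CPM at RA plus. Both ranges were wide and overlapped, with the RA plus median the higher. Ddit3 rose by 0.96 ± 0.18, adjusted p = 3.14e-06 from the undirected start, and its value from the mesendoderm start was 0.31 ± 0.14, adjusted p = 0.0804. In the germ layer experiment, where RA was set against CD 2665, the Ddit3 change was -0.42 ± 0.13, adjusted p = 0.0145, and the contrast between experiments was not tested. Because Ddit3 and the synthetase gene Mars overlap on opposite strands (Ddit3 at chr10:127290774-127296288, plus strand, GRCm38) and no source used here says whether counting used the strand, their counts are uncertain. Chac1, Cebpb and Nupr1 also rose from the undirected start, by 0.75 ± 0.21, 0.70 ± 0.15 and 0.57 ± 0.14 (adjusted p = 0.00192, 0.000111 and 0.000301). Their values from the mesendoderm start were -0.12 ± 0.15, -0.06 ± 0.13 and -0.21 ± 0.12, none called. The difference between starts was called for all 3 (-0.88 ± 0.26, adjusted p = 0.0217; -0.76 ± 0.20, adjusted p = 0.0105; and -0.78 ± 0.18, adjusted p = 0.00192). In the wells with external barcodelets alone Chac1 and Cebpb were not called from the undirected start, none of the 3 differences was called, and the Chac1 difference was lost in the other set too (-1.14, adjusted p = 0.103). In the germ layer experiment Chac1 was higher with RA as well (0.44 ± 0.14, adjusted p = 0.0149). Cebpb and Nupr1 were not called there (-0.17 ± 0.12 and -0.40 ± 0.21).

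**Figure D3:**
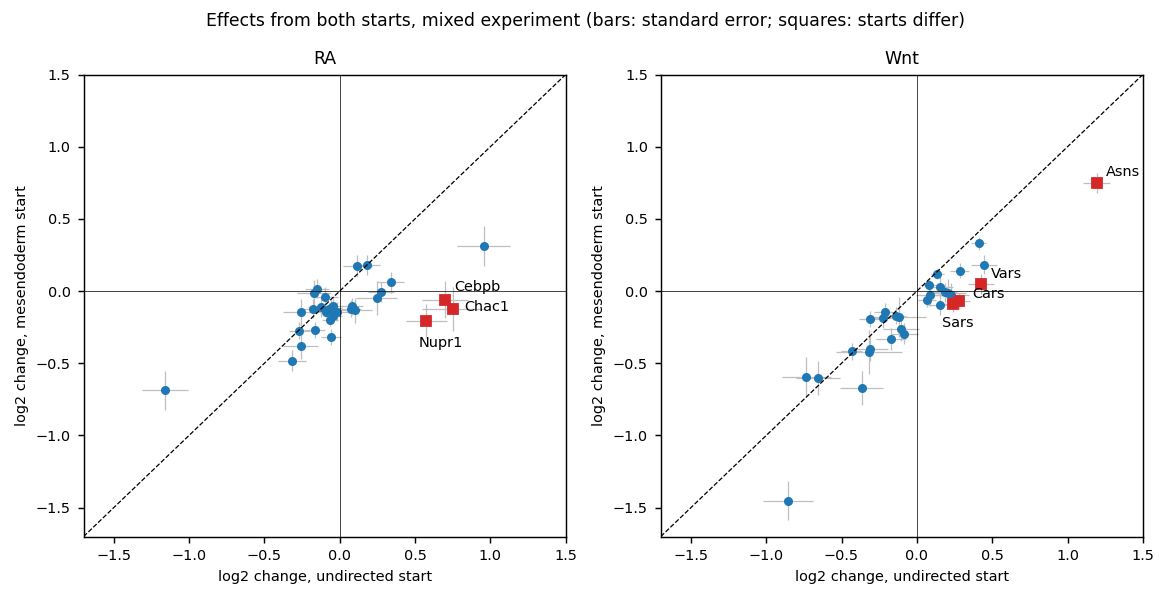
Effect of RA and of Wnt (log2 change, plus less minus) on each member from the undirected start (x axis) against the mesendoderm start (y axis), with bars of 1 standard error and a dashed line where both values are equal. Squares with names mark the 3 members (RA) and 4 members (Wnt) whose difference between starts was called, and all lie below the line.

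The transporter genes Slc7a3 and Slc3a2 and the folate gene Mthfd2 fell with RA. Slc7a3 changed by -1.16 ± 0.15, adjusted p = 1.29e-10 from the undirected start and -0.69 ± 0.13, adjusted p = 1.02e-05 from the mesendoderm start. Its levels from the undirected start were 4.43, 21.9 and 49.1 CPM at RA minus and 0, 12.4 and 23.5 CPM at RA plus, with overlap. Its germ layer change was -0.39 ± 0.14, adjusted p = 0.0287, a call lost with the depth covariate, as was that of Shmt2 below. Slc3a2 changed by -0.12 ± 0.04 in the germ layer experiment, -0.26 ± 0.06 in the mesendoderm experiment and -0.27 ± 0.07 and -0.27 ± 0.06 in the mixed experiment. Mthfd2 changed by -0.22 ± 0.06, -0.22 ± 0.07 and, from the mesendoderm start, -0.32 ± 0.06. Shmt2, the enzyme before it in the mitochondrial folate pathway, rose by 0.21 ± 0.06 in the germ layer experiment and 0.34 ± 0.09 from the undirected start. Psat1, the middle enzyme of serine synthesis, changed by -0.18 ± 0.04 in the germ layer experiment, -0.15 ± 0.05 in the mesendoderm experiment and -0.20 ± 0.05 from the mesendoderm start.

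Atf4 itself had germ layer levels of 154, 194 and 235 CPM with CD 2665 and 144, 171 and 199 CPM with RA, which overlapped. It changed by -0.18 ± 0.05, adjusted p = 0.00914 there, but with the UMIs per cell of each population as a covariate (the depth covariate) the value was -0.09, adjusted p = 0.37. In the other experiments its values were -0.14 ± 0.06, 0.07 ± 0.07 and -0.12 ± 0.06, none called. Germ layer populations with RA had higher Vars (0.15 ± 0.05) and lower Iars (-0.14 ± 0.05), and the other 13 synthetases were not called. In the mesendoderm experiment 3 of the 7 synthetases that passed the filter fell, Nars (-0.21 ± 0.04), Lars (-0.17 ± 0.05) and Sars (-0.16 ± 0.05). In the mixed experiment Lars fell from the undirected start (-0.17 ± 0.07), and from the mesendoderm start Lars, Nars, Aars and Eprs fell (-0.27 ± 0.06, -0.17 ± 0.05, -0.14 ± 0.04 and -0.13 ± 0.04) and Vars rose (0.18 ± 0.07). Trib3 was not called with RA in any experiment in which it was tested (-0.16 ± 0.13, 0.24 ± 0.13 and -0.05 ± 0.12).

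Over the members of the germ layer experiment 3 of 31 rose with RA and 8 fell, against 14.1% and 13.6% of all genes. With the depth covariate the members called numbered 6 in place of 11, and the median UMIs per cell were 15642 with RA and 17296 with CD 2665. In the mesendoderm experiment 0 of 15 rose and 8 fell, against 11.6% and 10.3%, and 2 were called with a minimum of 10 cells. From the undirected start 6 of 31 rose and 4 fell, against 16.9% and 17.5%. From the mesendoderm start 1 rose and 10 fell, against 14.4% and 15.6%. The mesendoderm start had a median change of -0.12 over the members that passed the filter and 0.00 over all genes tested. The difference between starts was called for 3 members, all negative, against 3.23% of all genes in that direction and 2.45% in the other. The summed level of the 7 pluripotency markers also moved with RA. It was 296 to 1457 (median 751) CPM with CD 2665 and 151 to 699.8 (median 386) CPM with RA in the germ layer experiment. In undirected wells it was 579.7 to 2547 (median 1629.9) CPM at RA minus and 408 to 1379 (median 867) CPM at RA plus, and its part in these results was not tested.

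Of 12 endoplasmic reticulum stress genes 6 rose at RA plus from the undirected start and 0 fell (median 0.24). Xbp1 rose by 0.77 ± 0.11, adjusted p = 6.05e-10 and the chaperone gene Calr by 0.44 ± 0.06, adjusted p = 2.87e-11. Of the same genes 1 rose and 3 fell from the mesendoderm start, and the difference between starts was called for 5 of 12, all negative, among them Xbp1 (-0.72 ± 0.14, adjusted p = 0.000102). Among the other Atf4 response genes, Atf3, a stress transcription factor, rose from the undirected start (1.52 ± 0.23, adjusted p = 2.76e-08), as did Atf5 (0.68 ± 0.11, adjusted p = 6.87e-08), and both differed between starts (-1.0 ± 0.29 and -0.54 ± 0.14). Cth, the cysteine synthesis enzyme, fell from both starts (-0.86 ± 0.15 and -0.83 ± 0.12) and in the germ layer experiment (-0.87 ± 0.10). Of these genes 3 of 25 rose and 8 fell in the germ layer experiment, and 2 of 23 rose and 11 fell from the mesendoderm start. Of 8 other cytosolic synthetase and scaffold genes 5 fell from the undirected start and none rose, and 1 fell from the mesendoderm start. The eIF2 list had 3 of 13 lower in the germ layer experiment and none higher. In undirected wells 1 of 12 rose, Eif2ak2 (0.61 ± 0.17, adjusted p = 0.0033), and 2 fell, and from the mesendoderm start 1 fell. Of 17 mitochondrial synthetases 1 rose in the germ layer experiment. From the undirected start 2 of 13 fell (Yars2, -0.49 ± 0.13, and Mars2, -0.49 ± 0.19), and none was called from the mesendoderm start. Of all genes tested, 14.1% rose and 13.6% fell in the germ layer experiment. The shares were 16.9% and 17.5% from the undirected start and 14.4% and 15.6% from the mesendoderm start. The undirected falls of 2 of 12 eIF2 list genes and 2 of 13 mitochondrial synthetases are near the share of all genes.

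With Bmp4 against Dorsomorphin in the germ layer experiment, 9 of 15 synthetases, 2 transporter subunits and the serine enzymes were lower. The regulators Cebpb, Trib3 and Ddit3 were higher. No germ layer population lacked both agents, so their parts cannot be told apart. Cebpb levels were 19.6, 26.5 and 42.1 CPM in the 16 populations with Dorsomorphin and 28.6, 54.3 and 94.8 CPM in the 16 with Bmp4. The median with Bmp4 lay above the highest Dorsomorphin population, and the ranges overlapped at their ends. The change was 1.01 ± 0.13, adjusted p = 5.95e-08. Trib3 had levels of 6.02, 11 and 18.6 CPM and 8.28, 16.2 and 20.5 CPM, which overlapped widely. It rose by 0.46 ± 0.13, adjusted p = 0.00462, and the value was 0.36, adjusted p = 0.123 with the depth covariate. Ddit3 rose by 0.36 ± 0.13, adjusted p = 0.024. Atf4 (0.03 ± 0.05), Asns (0.09 ± 0.06) and Chac1 (0.27 ± 0.14) were not called.

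Among the 16 members that fell with Bmp4 were Psph (-0.35 ± 0.05, adjusted p = 1.1e-06), Slc3a2 (-0.29 ± 0.04, adjusted p = 3.66e-06) and Slc7a3 (-0.51 ± 0.14, adjusted p = 0.00287). Psph levels were 75.3, 92.9 and 112 CPM with Dorsomorphin and 56.0, 75.2 and 80.9 CPM with Bmp4, overlapping in the middle. Of the 15 synthetases 9 fell, from Lars (-0.26 ± 0.04) and Rars (-0.24 ± 0.04) to Aars (-0.09 ± 0.04), and none rose. In the list of other cytosolic synthetase and scaffold genes 7 of 8 fell and none rose, with a median of -0.20. Of 17 mitochondrial synthetases 2 fell. Of the 25 other Atf4 response genes 4 rose and 10 fell. Of the 12 endoplasmic reticulum genes 5 fell, and of the 13 genes of the eIF2 list 1 rose and 4 fell. Of all genes tested 21.6% rose and 21.5% fell, so the mitochondrial synthetase count is under the share of all genes.

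Over the members 3 of 31 rose and 16 fell with Bmp4, where 21.6% and 21.5% of all genes did. The median change was -0.14 over the members that passed the filter and 0.00 over all genes tested. With the depth covariate 10 members were called in place of 19, and the median UMIs per cell were 17299 with Bmp4 and 15787 with Dorsomorphin. The 4 trophoblast markers summed to 168 to 524 (median 272) CPM with Dorsomorphin and 489.6 to 1063 (median 804) CPM with Bmp4, and their part in this result was not tested.

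In the other experiments Bmp plus moved fewer members. In the mesendoderm experiment 2 of 15 rose, Asns (0.29 ± 0.07, adjusted p = 0.000451) and Gars (0.21 ± 0.05, adjusted p = 0.000213), and 1 fell, the leucine sensor gene Sesn2 (-0.28 ± 0.08, adjusted p = 0.00201), against 13.4% and 15.9% of all genes. With a minimum of 10 cells neither rise was called. From the undirected start 2 of 31 fell, Slc3a2 (-0.27 ± 0.07) and Slc7a3 (-0.45 ± 0.15), and none rose, against 3.49% and 4.32%. The mesendoderm start had 1 higher and 7 lower, against 5.36% in either direction. Cebpb was the member that rose (0.54 ± 0.13, adjusted p = 0.00141), and Nupr1 (-0.46 ± 0.12, adjusted p = 0.00325) and Slc7a3 (-0.42 ± 0.13, adjusted p = 0.0221) fell most. The wells with external barcodelets alone called none of these from either start. No member differed between starts, where 0.193% of all genes did.

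Tgfb and Fgf changed few members. In the germ layer experiment Cebpb was lower with Activin A than with A8301 (-0.64 ± 0.12, adjusted p = 0.000645). There 0 of 31 members rose and 1 fell, against 4.07% and 2.95% of all genes. Cebpb levels were 22.8, 47.6 and 94.8 CPM with A8301 and 19.6, 32.4 and 47.0 CPM with Activin A, and the highest populations were those with A8301. Among populations with Bmp4 the medians were 82.8 CPM with A8301 and 39.1 CPM with Activin A. Among those with Dorsomorphin the medians were 26.3 and 28.0 CPM, so Cebpb was not lower with Activin A there. Cebpb also fell at Tgfb plus from the undirected start (-0.60 ± 0.15, adjusted p = 0.00494) and from the mesendoderm start (-0.41 ± 0.13, adjusted p = 0.0317), the latter called in neither set of wells alone. Asns fell from the undirected start (-0.36 ± 0.09, adjusted p = 0.00351) and in the mesendoderm experiment (-0.22 ± 0.07, adjusted p = 0.0273), but was not called in the germ layer experiment (-0.15 ± 0.06, adjusted p = 0.186). The undirected call was made in neither set of wells alone, and the mesendoderm call was lost with no filter and with a minimum of 10 cells. The undirected start had 0 of 31 higher and 2 lower (all genes 2.45% and 1.69%), and the mesendoderm start had 2 higher, Nupr1 (0.37 ± 0.12) and Slc7a3 (0.40 ± 0.13), and 1 lower (all genes 4.55% and 2.41%). Neither set of wells alone called Nupr1 or Slc7a3 there, and Slc7a3 was lost with the depth covariate and with pairwise products. Asns was the 1 of 15 members called in the mesendoderm experiment, against 5.5% of all genes higher and 4.6% lower. No member and 0% of all genes differed between starts.

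Mthfd2 (0.19 ± 0.06, adjusted p = 0.0401) and Psat1 (0.12 ± 0.04, adjusted p = 0.025) were higher with Fgf2 than with UO126 in the germ layer experiment. Thus 2 of 31 members rose and 0 fell, against 4.58% and 3.35%. Neither was called with the depth covariate. Nars fell in the mesendoderm experiment (-0.15 ± 0.04, adjusted p = 0.0155), 1 of 15 members, where 3.78% of all genes were higher and 5.5% lower. From the undirected start 2 of 31 rose, Slc7a3 (0.49 ± 0.15) and Shmt2 (0.25 ± 0.09), and Cebpb fell (-0.48 ± 0.15), against 6.85% and 6.42% of all genes. In wells with external barcodelets the Cebpb value had the opposite sign (0.14, adjusted p = 0.769). The mesendoderm start had 3 higher, Slc7a5 (0.32 ± 0.09), Wars (0.22 ± 0.08) and Mthfd2 (0.16 ± 0.06), and none lower, against 7.12% and 6.44%. With the depth covariate Slc7a5 alone was called, as in the wells without external barcodelets, and the wells with them called Wars alone. No member differed between starts, where 1.47% of all genes did. Notch and Shh, varied in the mesendoderm experiment, changed none of 15 members, and 1.16% and 0.043% of all genes.

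In the control wells, which had no combinatorial treatment, Asns separated the starts. The 8 control wells of the undirected start had Asns at 66.1, 74.5 and 95.3 CPM (lowest, median and highest), and the 8 of the mesendoderm start at 114, 154 and 169.8 CPM. These groups did not overlap. The difference was 0.97 ± 0.15, adjusted p = 1.64e-07, and it was called in the wells with and without external barcodelets. Slc7a3 was lower in the mesendoderm controls (-0.55 ± 0.18, adjusted p = 0.0352), a call made in neither set of wells alone. In all, 1 of 31 members was higher and 1 lower, where 4.3% and 4.27% of all genes were. Atf4 differed by -0.12 ± 0.11, adjusted p = 0.595. The 7 streak markers summed to 17.4 to 63.3 (median 34.4) CPM in the undirected and 81.3 to 158 (median 100.4) CPM in the mesendoderm controls.

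**Figure D4:**
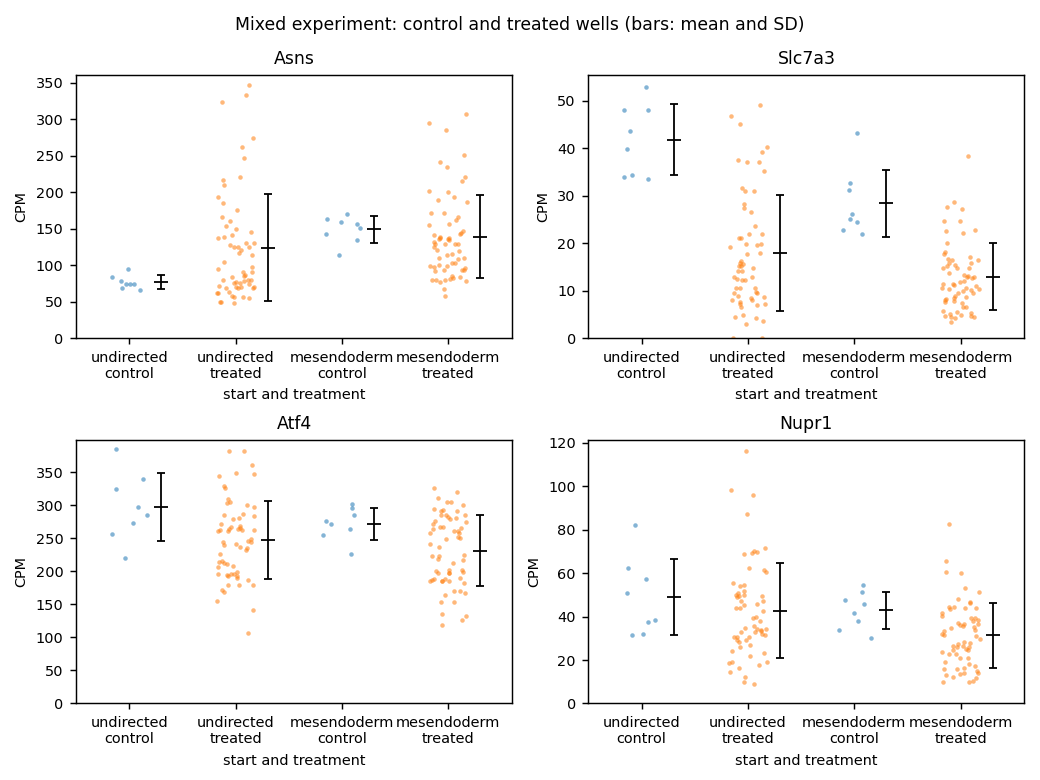
Levels in CPM (y axes) of Asns, Slc7a3, Atf4 and Nupr1 in the control and treated wells of both starts in the mixed experiment, with a point for each well and bars at the mean with 1 SD. Asns in the mesendoderm control wells lies above every undirected control well.

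In treated wells, taken at the mean of all pathway levels, Asns was higher from the mesendoderm start by 0.23 ± 0.06, adjusted p = 0.000746. The start difference in treated wells less that in control wells was -0.73 ± 0.16, adjusted p = 0.00183, and neither set of wells alone called this (-0.73, adjusted p = 0.12, and -0.72, adjusted p = 0.155). Trib3 and Nupr1 were lower from the mesendoderm start (-0.48 ± 0.10, adjusted p = 2.73e-05, and -0.38 ± 0.10, adjusted p = 0.00162). Of 31 members 3 were higher and 3 lower in treated wells, against 14.2% and 11.4%. For the change of the start difference the members called were 1 lower and none higher, against 1.11% and 1%. These comparisons use the same control wells as the next.

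Against controls, treated wells had much less Slc7a3. From the undirected start its levels were 33.5, 41.7 and 52.9 CPM in controls and 0, 14.9 and 49.1 CPM in 62 treated wells. The levels from the mesendoderm start were 22.0, 25.6 and 43.1 CPM and 3.5, 11.4 and 38.4 CPM in 64 treated wells. Most treated wells lay below all controls of their start. The changes were -1.45 ± 0.16, adjusted p = 1.13e-13 and -1.25 ± 0.14, adjusted p = 2.74e-12. Slc7a5, Slc3a2, Mthfd2, Psat1, Lars and Atf4 fell from both starts as well, with Atf4 at -0.28 ± 0.09, adjusted p = 0.0137 and -0.25 ± 0.08, adjusted p = 0.0204. The undirected Atf4 value was -0.09, adjusted p = 0.715 in wells without external barcodelets, and the mesendoderm value was called in neither set alone. Asns (0.56 ± 0.12, adjusted p = 0.000261) and Ddit3 (0.73 ± 0.25, adjusted p = 0.0262) rose from the undirected start, the latter called in neither set alone, and Trib3 (-0.62 ± 0.14, adjusted p = 0.000506) and Nupr1 (-0.50 ± 0.15, adjusted p = 0.00952) fell from the mesendoderm start. In count, 2 of 31 rose and 8 fell from the undirected start, against 8.3% and 11% of all genes. The mesendoderm start had 0 higher and 9 lower, against 7% and 8.5%. The 7 pluripotency markers summed to 1629 to 2147 (median 2035) CPM in undirected controls and 408 to 2547 (median 1142) CPM in undirected treated wells, and their part in this result was not tested.

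Pairs of pathways were tested by products, which give the effect of one pathway at plus less its effect at minus of the other. Of 51 pairs over the 3 experiments, 7 had at least 1 member called. The Asns response to Wnt depended on RA in the germ layer experiment (-0.48 ± 0.07, adjusted p = 5.62e-05). Asns levels were 189, 229.9 and 282 CPM in the 8 populations with CD 2665 and GSK3 inhibitor XV (lowest, median and highest). They were 131, 157 and 206 CPM with CD 2665 and IWR1, 132, 161 and 183 CPM with RA and GSK3 inhibitor XV, and 146, 157 and 172 CPM with RA and IWR1. Asns was thus highest with GSK3 inhibitor XV and CD 2665, and the other 3 groups overlapped one another widely. Sesn2 was also called for this pair (0.43 ± 0.09, adjusted p = 0.00562), 2 of 31 members against 3.63% of all genes. RA with Tgfb called Asns (0.34 ± 0.07, adjusted p = 0.0264, all genes 0.175%) and RA with Bmp called Lars (-0.29 ± 0.07, adjusted p = 0.0126, all genes 3.01%).

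Cebpb was the member called for Tgfb with Bmp in the germ layer experiment (-1.16 ± 0.14, adjusted p = 6.31e-06, all genes 3.01%). Its levels were 61.5, 82.8 and 94.8 CPM in the 8 populations with A8301 and Bmp4. They were 28.6, 39.1 and 47.0 CPM with Activin A and Bmp4, 22.8, 26.3 and 33.7 CPM with A8301 and Dorsomorphin, and 19.6, 28.0 and 42.1 CPM with Activin A and Dorsomorphin. Every population with A8301 and Bmp4 stood above all 24 others.

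**Figure D5:**
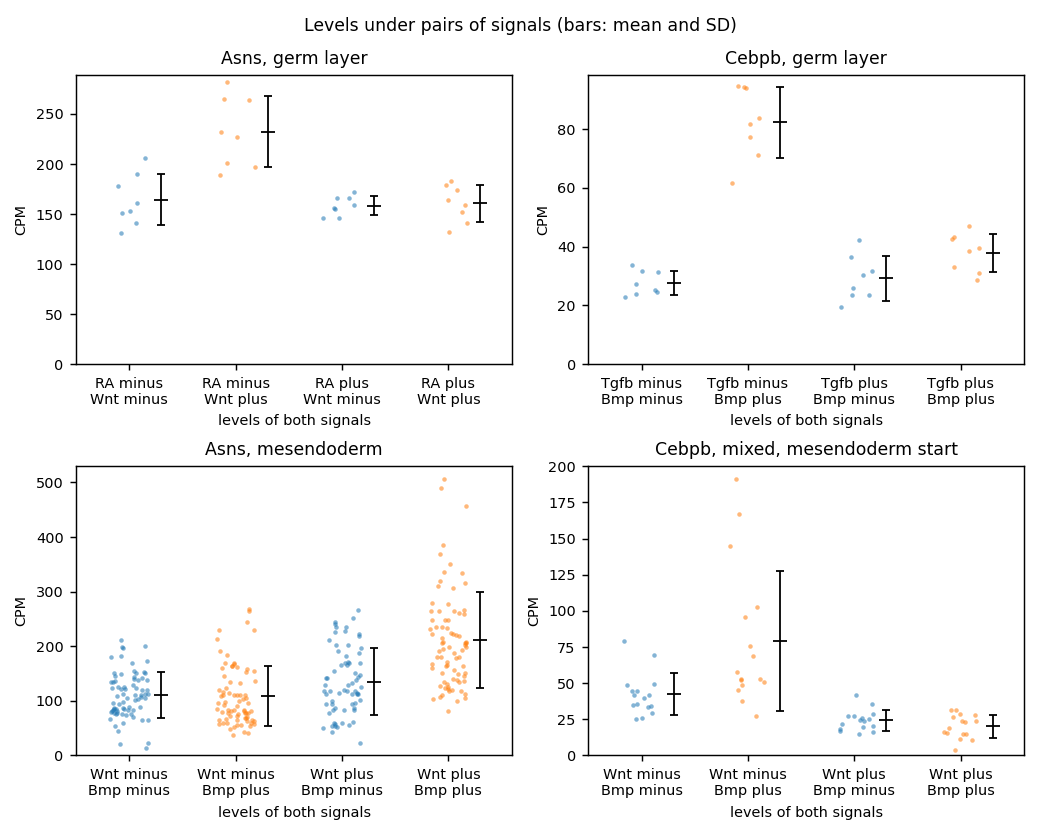
Levels in CPM (y axes) of Asns and Cebpb for 4 pathway pairs that called them, by the 4 combinations of the levels of that pair, with a point for each population or well and bars at the mean with 1 SD. Germ layer Cebpb with A8301 and Bmp4 lies above all other populations, and Asns is highest at RA minus with Wnt plus.

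In the mesendoderm experiment Wnt with Bmp called Asns (0.70 ± 0.14, adjusted p = 3.35e-05), Gars (0.36 ± 0.10, adjusted p = 0.00519) and Psat1 (0.32 ± 0.09, adjusted p = 0.0124), 3 of 21 members against 10.4% of all genes. The filter on low counts depends on the model fitted. It kept 21 members for the pairs here, in place of 15 for the pathway effects. Asns levels were 81.0, 199 and 506 CPM at plus for both, with medians of 123, 92.6 and 109 CPM at Wnt plus alone, Bmp plus alone and minus for both. RA with Wnt called Cebpb (0.92 ± 0.28, adjusted p = 0.0339) and Mthfd2 (0.50 ± 0.14, adjusted p = 0.0154), 2 of 21 against 3.6%. Cebpb did not pass the filter for the pathway effects and had wells at 0 CPM in every group of this pair. Its medians were 22.8 CPM at plus for both and 34.4 CPM at minus for both. They were 32.0 CPM at RA plus alone and 17.5 CPM at Wnt plus alone. In the mixed experiment the Wnt with Bmp pair from the mesendoderm start called Cebpb (-1.04 ± 0.25, adjusted p = 0.00619) and Phgdh (-0.45 ± 0.13, adjusted p = 0.0295), 2 of 31 against 1.94%. Cebpb there was highest at Wnt minus with Bmp plus, at 27.5, 55.1 and 191 CPM. No member was called for any of the 10 pairs of the undirected start.

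Transfection itself was examined in 2 ways, as RNA delivered into cells is known to be able to activate an eIF2 kinase. Germ layer cells were divided within each population into those with more and fewer barcodelet UMIs (2168 and 2182 cells, median 2963 and 389 barcodelet UMIs). Ddit3 was higher in the cells with more (0.53 ± 0.12, adjusted p = 0.00145) and Vars and Eprs were lower (-0.17 ± 0.04 and -0.10 ± 0.03), so 1 of 31 members rose and 2 fell against 5.24% and 4.57% of all genes. The cells with more barcodelets also had more transcriptome UMIs (median 16483 against 14300), and with load taken as a share of transcriptome UMIs none of these 3 was called. In the bulk libraries, with 2 replicates a group and 2899646 to 5134534 reads in genes, no member was called at 24 h or 72 h, where 0.0344% and 0.0258% of all genes were. DESeq2 called none either. At unadjusted p under 0.05 the members numbered 1 and 2 of 31, and all genes 305 and 626 of 11631. The members were Cebpb at 24 h, and Ddit3 and Phgdh at 72 h. Ddit3 read 71.2 and 84.3 CPM in the untransfected libraries, 110 and 97.2 CPM at 24 h and 135 and 113 CPM at 72 h. Its log2 change at 72 h was 0.67 ± 0.21, adjusted p = 0.84, with both transfected groups above the untransfected pair. Cebpb read 1.35 and 1.16 CPM in the untransfected libraries, 3.7 and 3.1 CPM at 24 h and 2.99 and 2.35 CPM at 72 h. Both transfected groups lay above the untransfected pair, with a log2 change of 1.43 ± 0.61, adjusted p = 1 at 24 h. These Cebpb levels are near the floor. The unadjusted p-values of Ddit3 and Cebpb come from these same libraries, so the separation is no further evidence. At that threshold the shares of members were close to those of all genes. On data simulated at this size, the bulk test recovered 28.4% of genes changed 2-fold. The comparisons at 24 h and 72 h share the untransfected libraries.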

How the data were processed

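UMI count matrices from 10x Chromium libraries and tables assigning cells to treatments were used as deposited by the authors. HTSeq 0.9.1, STAR 2.5.2b, Cell Ranger 1.3.1 and the mm10 build appear in the submitters' processing notes. The assignments rest on barcodelet counts and on the fraction of them in the expected barcodelets, as deposited by the authors. Cells marked as passing there were kept (4350 of 8421, 2899 of 12781 and 4869 of 5944 cells in the germ layer, mesendoderm and mixed matrices), and no doublet caller was run. Bulk libraries are 3′ read counts per gene, as deposited by the authors, and the Foxa2 and Tdgf1 sorted bulk samples were not used here. All columns of values were matched to a sample.

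Counts were summed per population with at least 5 cells and fitted with edgeR 4.0.16 in R 4.3.3 (TMM, filterByExpr, quasi-likelihood test, Benjamini-Hochberg adjustment over all genes tested). Pathways were coded 0.5 and -0.5, and products of codes gave the pairs, adjusted within each pair. DESeq2 1.42.0, other scaling, no filter, a depth covariate (log2 of the mean UMIs per cell), a minimum of 10 cells and pairwise products were the alternatives. Fits within each external barcodelet set were added after seeing the data, as was the contrast of the start difference between treated and control wells. The fits were tested on simulated data. The 32 genes, 5 further lists and 9 marker lists were chosen with earlier results of these data known. Named were called members, largest change first, with Atf4, Ddit3, Trib3, Asns and Chac1 and genes of smallest adjusted p from each list. Some promoter windows are not reported here. Gene coordinates are GENCODE vM21 on GRCm38. Replicate numbers of the bulk libraries as given did not pair them, and the reported bulk fit has no replicate block.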

Additional observations from a re-analysis of the deposited data

Results flagged for a closer look

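Among the 8 control wells of the undirected start, the highest well stood apart from the others for each of 4 members out of 32, judged by its gap to the next well as a share of the range. The highest Trib3 level was 37.7 CPM with the next at 24.9 CPM, the highest Psat1 level 317 CPM with the next at 253 CPM, the highest Shmt2 level 97.5 CPM with the next at 57.0 CPM, and the highest Gars level 147 CPM with the next at 114 CPM. These are 4 of 64 sets of 8 wells examined, where chance gives about 1 in 20.

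Several effects differed between the starts of the mixed experiment by the test of the difference, given as mesendoderm less undirected start. For RA they were Chac1 (log2 -0.88 ± 0.26), Cebpb (-0.76 ± 0.20) and Nupr1 (-0.78 ± 0.18). For Wnt they were Asns (-0.44 ± 0.11), Vars (-0.37 ± 0.11), Cars (-0.35 ± 0.09) and Sars (-0.33 ± 0.09). The start difference of Asns was lower in treated than in control wells by the same kind of test (-0.73 ± 0.16).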

How the results depend on the processing

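Of 1422 values of called effects refitted under the alternatives, 1207 kept their direction and their side of the threshold, 214 kept direction only and 1 reversed (Cebpb for Fgf from the undirected start, 0.14 in wells with external barcodelets). Counts of called members within 1.5 times the reported count are not listed. With the depth covariate germ layer counts went from 11 to 6 (RA), 19 to 10 (Bmp) and 2 to 0 (Fgf), and mixed Fgf from the mesendoderm start from 3 to 1. With no filter mesendoderm counts went from 1 to 0 (Tgfb and Fgf) and 3 to 5 (Bmp). Mixed counts went from 2 to 4 (Tgfb, undirected), 3 to 5 (Fgf, undirected), 4 to 2 (Wnt difference between starts, 1 gene shared), 0 to 1 (Fgf difference) and 2 to 7 (pairs). With a minimum of 10 cells mesendoderm counts went from 8 to 2 (RA), 1 to 0 (Tgfb and Fgf) and 3 to 1 (Bmp), and mixed Fgf from the undirected start from 3 to 5. With pairwise products counts went from 1 to 2 (germ layer Tgfb), 1 to 0 (mesendoderm Fgf), 3 to 1 (mixed Fgf, undirected, and Tgfb, mesendoderm start) and 3 to 1 (RA difference).

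The sets of wells with and without external barcodelets were fitted alone, with fewer wells each. Without them the undirected start gave 6 (RA), 11 (Wnt), 1 (Tgfb), 0 (Bmp) and 1 (Fgf), and the mesendoderm start 0 (Tgfb), 2 (Bmp) and 1 (Fgf). With them the undirected start gave 0 (Tgfb, Bmp and Fgf) and the mesendoderm start 5 (RA), 8 (Wnt), 0 (Tgfb and Bmp) and 1 (Fgf). The Wnt difference gave 0 without and 2 with them, and the RA difference 0 with them. The start comparisons gave 3 and 3 in place of 6 (treated), 1 and 1 in place of 2 (control) and 0 and 0 in place of 1 (treated less control). Treated less control wells gave 6 and 5 in place of 10 (undirected) and, with them, 2 in place of 9 (mesendoderm start). Load as a share of transcriptome UMIs gave 1 in place of 3.

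The bulk comparisons called 0 members under each alternative, including the replicate block (0), the crossed pairing (0) and each library left out (0 to 0). The deviations of same-numbered libraries correlated at 0.109 (24 h with 72 h), -0.157 (24 h with untransfected) and -0.0797 (72 h with untransfected). The numbers as given therefore do not pair the groups. Both correlations with the untransfected libraries were negative, the sign that crossed untransfected numbers would give. The reported fit has no replicate block, so any such shared spread stays in its errors. Depth limits the mesendoderm experiment most, where 17 of 32 members did not pass the filter for the pathway effects.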
